A study of Mus musculus with 36 samples.

Results

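Gastrocnemius muscle of mice lacking Bmal1 in the liver (Bmal1hep-/-) was compared between zeitgeber time (ZT) 16 and ZT12, over 6 of the 36 libraries of the series, with 3 biological replicates at each time. Members were the columns of the deposited table labelled as knockout at these times. The 3 Bmal1hep-/- ZT16 libraries were set against the 3 Bmal1hep-/- ZT12 libraries, and the same step in wild-type (WT) mice, 3 libraries at ZT16 against 3 at ZT12, is given where it shows how far the genotypes differ. Zeitgeber time is counted in hours from lights on, so in the usual light schedule ZT12 is lights off and the step spans the first 4 h of darkness; the schedule itself is not given in the sources used here. Nor are the Cre driver, the age and sex of the mice and their feeding, and whether replicates were single or pooled animals. Polyadenylated RNA was captured from total RNA of whole muscle. In such bulk RNA, fewer cells of a type and less RNA per cell cannot be told apart. The values are FPKM, by definition fragment counts scaled by transcript length and library size. The tool and annotation behind them are not given, so comparisons of level between genes are approximate. All differences are ZT16 minus ZT12 on the log2(FPKM + 1) scale unless said otherwise.

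Bmal1, whose gene symbol is Arntl, pairs with CLOCK and activates genes through E-box elements, among them the genes of its own repressors, the PER and CRY proteins, CHRONO (Ciart) and REV-ERB (Nr1d1 and Nr1d2). REV-ERB proteins and the ROR receptors compete for ROR elements, which lie in Arntl and in Nfil3, and NFIL3 competes with DBP, TEF and HLF for D-boxes, which lie in the period genes. Each tissue runs this loop in its own cells, so in Bmal1hep-/- mice the muscle keeps the Arntl gene while the liver clock is lost. Skeletal muscle clocks are also reset by feeding, activity and glucocorticoids, which in nocturnal rodents peak around the start of the night.

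Promoters of 5 genes are shown, those of the clock genes that were called between ZT16 and ZT12 and held a match to 1 of these elements. Other called genes also held matches, and their sequences are not printed. Sequences and coordinates are RefSeq's on GRCm38.p6, printed 5′ to 3′ on the strand of the gene in lower case with the matches in capitals, and they give the 250 bases before the annotated start. For Arntl, whose match lies at base 31 after the start, 30 bases around it are given. RefSeq gave 2 promoter windows each for Per1 and Arntl, and the printed sequence is from the window picked for its matches.
Ciart, chr3:95882229-95882478, minus strand, 3 E-boxes: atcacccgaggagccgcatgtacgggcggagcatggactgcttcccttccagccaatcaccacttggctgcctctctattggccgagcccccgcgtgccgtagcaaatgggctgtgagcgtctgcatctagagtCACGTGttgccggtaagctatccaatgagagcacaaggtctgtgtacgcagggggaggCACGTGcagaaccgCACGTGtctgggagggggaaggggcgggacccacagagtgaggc
Per1, chr11:69098699-69098948, plus strand, 1 E-box: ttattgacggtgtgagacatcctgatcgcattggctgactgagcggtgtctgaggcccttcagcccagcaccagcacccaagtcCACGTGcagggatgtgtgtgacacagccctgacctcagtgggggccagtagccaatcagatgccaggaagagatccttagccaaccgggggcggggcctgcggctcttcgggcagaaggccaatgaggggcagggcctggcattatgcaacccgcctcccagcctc
Per3, chr4:151044666-151044915, minus strand, 2 D-boxes: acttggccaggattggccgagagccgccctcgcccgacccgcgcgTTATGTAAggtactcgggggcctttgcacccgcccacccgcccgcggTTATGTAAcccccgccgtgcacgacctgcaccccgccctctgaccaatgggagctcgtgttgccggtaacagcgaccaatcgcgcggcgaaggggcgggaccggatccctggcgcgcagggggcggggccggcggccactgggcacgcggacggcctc
Nfil3, chr13:52981040-52981289, minus strand, 1 ROR element read on the other strand: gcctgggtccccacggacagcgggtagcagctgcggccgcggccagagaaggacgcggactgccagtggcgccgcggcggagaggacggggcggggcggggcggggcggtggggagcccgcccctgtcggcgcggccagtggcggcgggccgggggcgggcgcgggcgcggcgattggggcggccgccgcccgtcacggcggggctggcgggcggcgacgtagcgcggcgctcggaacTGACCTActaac
Arntl, chr7:113207530-113207559, plus strand, 1 ROR element: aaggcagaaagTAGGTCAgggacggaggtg

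Motifs were searched on both strands in windows from 250 bases before to 50 after the start, as CACGTG (E-box), TTATGTAA or TTACGTAA (D-box), TAGGTCA (ROR element) and TGACGTCA (cAMP response element), and no 2 matches in the printed sequences overlapped. RefSeq windows existed for 12 of the 14 genes lower at ZT16, for 28 of the 34 genes higher at ZT16 and for 8323 of the 10837 genes tested. An E-box stood in the windows of 5 of the 12 lower genes (41.67%), namely Ciart, Per1, Gadd45g, Lnx1 and Tspan4, in those of 5 of the 28 higher genes (17.86%) and in those of 1026 genes tested (12.33%). A ROR element stood in those of 2 of the 28 higher genes (7.143%), Arntl and Nfil3, in none of the 12 lower genes, and in 2.259% of genes tested. The D-box stood in those of 1 lower gene, Per3, of no higher gene and of 0.817% of genes tested. The cAMP response element stood in those of 3 higher genes (10.71%), Pnpla3, Tecpr2 and Wsb1, of no lower gene and of 3.749% of genes tested. Some genes had several windows: the 28 higher genes had 44, the 12 lower genes 15 and the 8323 tested genes 10685. Per window, an E-box stood in 33.33% for lower genes, 11.36% for higher genes and 10.3% for genes tested. For higher genes and genes tested, the share per window was 4.545% and 1.862% for the ROR element. For the cAMP response element it was 6.818% and 3.126%. These counts are descriptions of the letters in short windows, with no test, and binding was not measured.

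Of 10837 genes tested, 34 were higher at ZT16 than at ZT12 in Bmal1hep-/- muscle (0.314%) and 14 were lower (0.129%), which together is 0.443% (limma, Benjamini-Hochberg adjusted p under 0.05). Among the genes called, the largest rises were of Pnpla3, Arntl, Fkbp5, Lrrc52, Nfil3, Ypel2 and Myod1, and the largest falls were of Ciart, Arrdc2, Per1, Gadd45g, Ddit4 and Nr1d1. All 3 ZT16 values lay above all 3 ZT12 values for each of the 34 genes and below them for each of the 14; over all genes tested such separation was seen for 6.26% upward and 3.88% downward. The difference reached 1 or more on the log2 scale for 13 of the 48 genes. With quantile normalization in place of the values as deposited, 15 genes were higher and 10 lower. At an unadjusted p under 0.05 there were 699 genes, or 6.45% of those tested, of which 468 were higher at ZT16. The median difference over all genes tested was 0.0014, and the 95% confidence interval of a typical gene reached 0.297 to either side.

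The number of genes called depended on single libraries. It was 17 higher and 7 lower without ZT16 replicate 1, 7 and 4 without ZT16 replicate 2, and 6 and 4 without ZT16 replicate 3. It was 13 higher and 9 lower without ZT12 replicate 1, 12 and 5 without ZT12 replicate 2, and 28 and 10 without ZT12 replicate 3. The genes that passed in all 6 of these fits were 8: Arntl, Nfil3, Ypel2, Myod1 and Slc16a9, which were higher at ZT16, and Ciart, Per1 and Nr1d1, which were lower. None of the 48 changed direction in any fit.

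**Figure D1:**
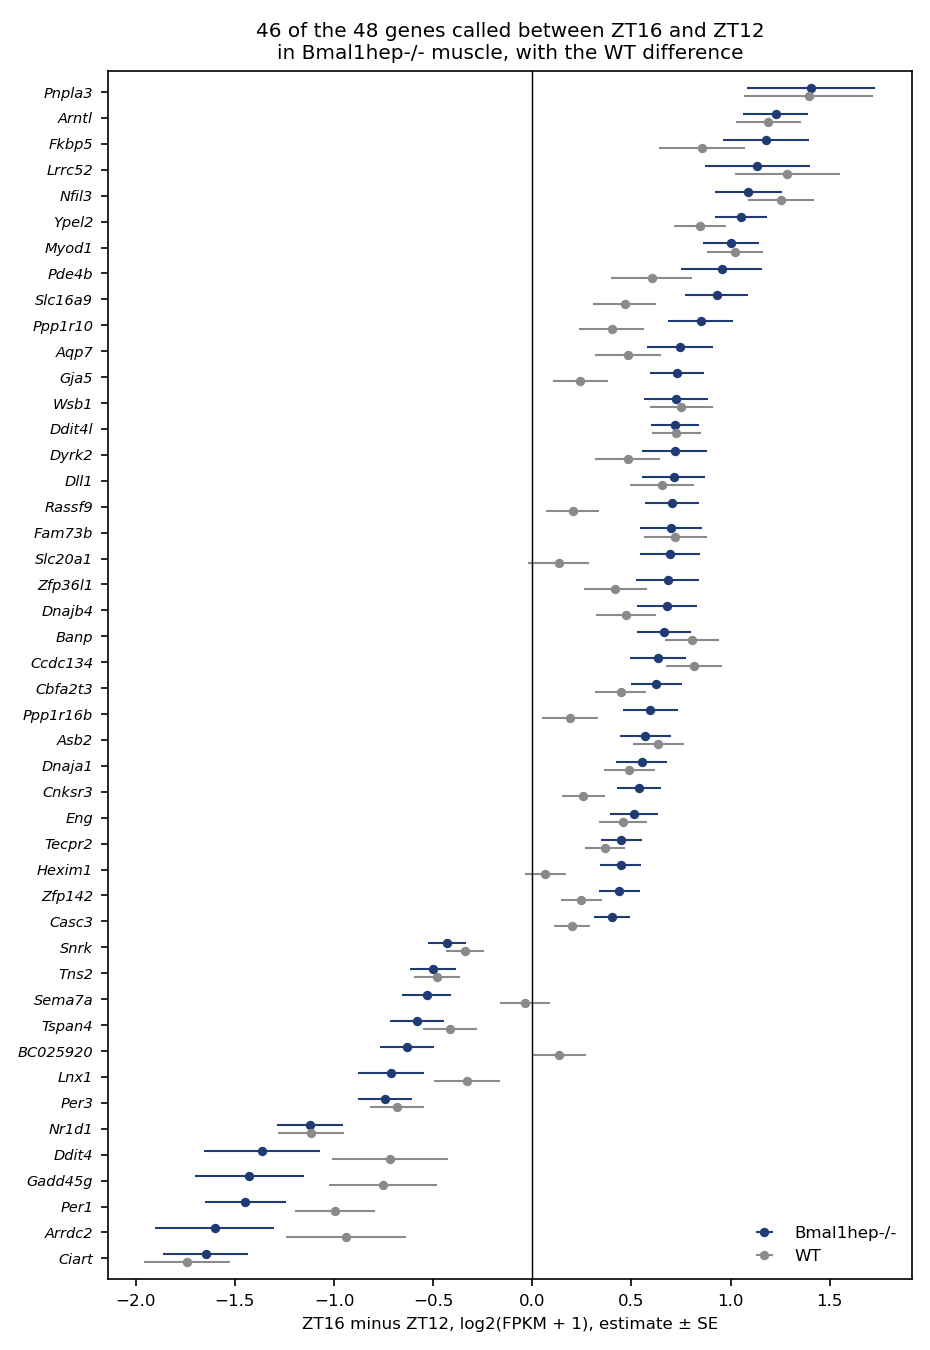
Difference between ZT16 and ZT12 (log2(FPKM + 1), estimate ± SE, n = 3 libraries per time) for 46 of the 48 genes called in Bmal1hep-/- muscle (dark) with the same difference in WT muscle (grey). The genes were chosen on the Bmal1hep-/- values; 45 of the 46 WT points lie on the same side of 0, and that of BC025920 does not.

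Replicates within the Bmal1hep-/- ZT16 and ZT12 groups correlated at 0.967 to 0.987, and 2 of the 6 libraries stood apart. FPKM sums were 578393 to 662301 in 5 libraries and 830136 in ZT12 replicate 2, where long transcripts were read lower (Spearman's rho of −0.351 between transcript length and the deviation from the mean of all libraries, against −0.166 to 0.171 in the others). Acta1, skeletal alpha-actin, was listed at 0 in ZT16 replicate 3 and at 31036 to 45257 FPKM in the other 5. Myh4, another muscle fibre marker, had a difference of exactly 0 in Bmal1hep-/- muscle and of −4.29 in WT muscle. Irregular values were thus not limited to Acta1, and their source was not tested. Summed Schwann cell and nerve markers were 395 FPKM in ZT16 replicate 3, against 76.2 and 79.3 in the other ZT16 libraries and 67.1 to 135 at ZT12. Muscle fibre markers summed to 90840 to 129608 FPKM at ZT16 and 105612 to 177048 at ZT12, so the muscle label held in each library, and hepatocyte markers summed to at most 2.97 FPKM. Without both ZT12 replicate 2 and ZT16 replicate 3, 3 genes were higher (Arntl, Ypel2 and Myod1) and 3 lower (Ciart, Nr1d1 and Per1). The muscle Arntl gene is not a check of a deletion made in the liver.

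The activating arm of the clock moved through Arntl. Of its 4 tested genes 1 rose and none fell. Arntl stood at 5.36, 5.52 and 6.19 FPKM at ZT16, against 2.30, 1.68 and 1.63 FPKM at ZT12. The lowest ZT16 library was above the highest ZT12 library, and the difference was 1.23 (SE 0.16, adjusted p = 0.000112 by limma). Its level was 3.04 times as high at ZT16, on the way from its lowest mean of the 6 times at ZT12 to its highest at ZT0. Clock, the partner of BMAL1, had 3.52, 2.89 and 3.33 FPKM at ZT16 and 3.15, 2.06 and 3.34 FPKM at ZT12, with overlapping values and a difference of 0.15 (SE 0.17). Rora, a receptor that activates Arntl, differed by −0.02 (SE 0.21), also with overlap.

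Among the period and cryptochrome genes, 2 of 5 fell, Per1 and Per3, and none rose. Per1 had 8.11, 8.34 and 7.15 FPKM at ZT16, against 22, 24.7 and 22.8 FPKM at ZT12, and fell by 1.45 on the log2 scale (SE 0.20, adjusted p = 0.000195 by limma). Replicates of Per1 lay within a narrow band at each time, and the groups were far apart. Per3 had 5.27, 5.81 and 5.13 FPKM at ZT16, against 8.35, 9.96 and 11 FPKM at ZT12, and fell by 0.75 (SE 0.14, adjusted p = 0.00757). Without ZT16 replicate 3 its adjusted p was 0.0574. Per2 had 5.04, 5.71 and 5.02 FPKM at ZT16, against 7.34, 7.06 and 6.78 FPKM at ZT12; its values did not overlap, and its difference of −0.37 (SE 0.18) did not pass (adjusted p = 0.768). Cry1 was the one repressor gene of this family with a positive difference. It had 9.68, 10.3 and 9.40 FPKM at ZT16 and 7.84, 6.21 and 7.55 FPKM at ZT12, a difference of 0.40 (SE 0.12, adjusted p = 0.246). Cry2 differed by −0.32 (SE 0.11, adjusted p = 0.349).

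Of the second repressor group, 2 of 5 fell and all 5 differences were negative. Ciart, whose product CHRONO represses the BMAL1 and CLOCK pair, had the largest fall of any gene called. It had 1.66, 2.19 and 2.47 FPKM at ZT16, against 8.39, 11.4 and 6.75 FPKM at ZT12, and fell by 1.65 (SE 0.22, adjusted p = 0.000112 by limma). Nr1d1, which encodes REV-ERB alpha, had 20.0, 18 and 20.4 FPKM at ZT16, against 51.4, 41.1 and 38.7 FPKM at ZT12, and fell by 1.12 (SE 0.17, adjusted p = 0.000391). Nr1d1 overlaps Thra on the opposite strand, and the sources used here do not state whether reads were counted by strand. Its paralogue Nr1d2 stood at 30.3, 25.1 and 25 FPKM at ZT16 and at 33.8, 28.7 and 40.4 FPKM at ZT12, with overlap and a difference of −0.34 (SE 0.15, adjusted p = 0.653). Bhlhe40 and Bhlhe41, the DEC repressors that bind E-boxes, differed by −0.40 (SE 0.16) and −0.33 (SE 0.13), and neither passed.

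Of the 4 D-box factors, the repressor Nfil3 rose and no activator passed. Nfil3 had 17.3, 20.9 and 23.6 FPKM at ZT16, against 9.98, 8.29 and 9.02 FPKM at ZT12, a difference of 1.09 (SE 0.17, adjusted p = 0.000647 by limma). Dbp had 39.2, 38.1 and 35.9 FPKM at ZT16, against 82.4, 127 and 60.7 FPKM at ZT12. Its groups did not overlap, but the ZT12 libraries were spread widely, and the difference of −1.17 (SE 0.28) had an adjusted p of 0.0594. Without ZT12 replicate 3 that p was 0.033 and without ZT12 replicate 2 it was 0.396. Tef and Hlf differed by −0.32 (SE 0.10, adjusted p = 0.2) and −0.33 (SE 0.19, adjusted p = 0.893). In sum over the 4 clock groups, 6 of 18 tested genes passed, where 0.443% of all genes did.

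**Figure D2:**
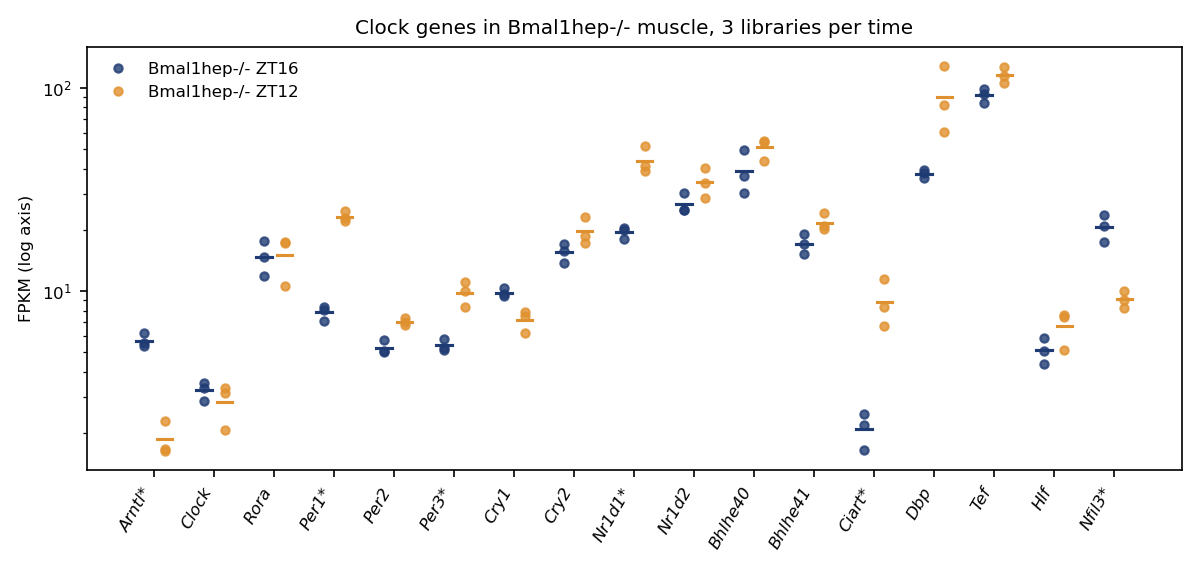
FPKM (log axis) of 17 of the 18 clock genes tested in each Bmal1hep-/- library, with ZT16 (dark) left of ZT12 (orange); points are libraries, bars are means of 3, and an asterisk marks adjusted p under 0.05. Arntl and Nfil3 stand higher at ZT16, and Per1, Per3, Nr1d1 and Ciart lower, with no overlap.

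Output genes that cycle in many tissues fell where they passed. Of 11 such output genes, 2 fell, Tns2 and Tspan4, none rose, and the median difference was −0.18. Tns2, a tensin of cell adhesions, had 11.5, 10.5 and 11.8 FPKM at ZT16, against 15.4, 17.3 and 16.2 FPKM at ZT12, and fell by 0.50 (SE 0.12, adjusted p = 0.0457 by limma). Tspan4, a tetraspanin, had 9.66, 10.6 and 12.5 FPKM at ZT16, against 15, 17 and 18.4 FPKM at ZT12, and fell by 0.58 (SE 0.14, adjusted p = 0.0479). Neither passed in any fit that left out 1 library, with adjusted p up to 0.27 for Tns2 without ZT16 replicate 2 and up to 0.261 for Tspan4 without ZT16 replicate 1. Usp2, a deubiquitinase, had 83.0, 76.8 and 67.0 FPKM at ZT16, against 99.0, 111 and 110 FPKM at ZT12, and did not pass (−0.49, SE 0.13, adjusted p = 0.0907).

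Targets of the glucocorticoid receptor moved in both directions. Of 20 tested, 1 rose and 3 fell, the median difference was −0.23, and 8 had an unadjusted p under 0.05. Fkbp5, a co-chaperone that dampens the receptor, had 22.9, 15.9 and 23.6 FPKM at ZT16, against 8.95, 8.68 and 7.91 FPKM at ZT12, a difference of 1.18 (SE 0.22, adjusted p = 0.00757 by limma). Without ZT16 replicate 3 its adjusted p was 0.068. Per1, described above, is also a member. Arrdc2, an alpha-arrestin, had 24.8, 20.0 and 19.5 FPKM at ZT16, against 65.3, 88.0 and 51.7 FPKM at ZT12, and fell by 1.60 (SE 0.30, adjusted p = 0.0103). Ddit4, which encodes the mTORC1 inhibitor REDD1, had 5.56, 4.34 and 4.65 FPKM at ZT16, against 12.2, 19.4 and 11.5 FPKM at ZT12, and fell by 1.36 (SE 0.29, adjusted p = 0.0319). For Arrdc2 and Ddit4 ZT12 replicate 2 was the highest library, and without it the adjusted p was 0.122 and 0.218.

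Ddit4 is listed among atrophy and FOXO targets too, of which 2 of 22 fell, none rose, and the median was −0.10. The other was Gadd45g, a stress gene whose family member Gadd45a marks muscle atrophy. Gadd45g had 51.7, 49.0 and 55.7 FPKM at ZT16, against 94.1, 242 and 125 FPKM at ZT12, and fell by 1.43 (SE 0.27, adjusted p = 0.0111 by limma). ZT12 replicate 2 stood far above the other libraries, and without it the fall was 1.04 with an adjusted p of 0.161. Pik3ip1, an inhibitor of PI3 kinase, and Foxo1 differed by −0.40 (SE 0.16, adjusted p = 0.471) and 0.26 (SE 0.13, adjusted p = 0.787). Ddit4l, the paralogue of Ddit4 and likewise an mTORC1 inhibitor, went the other way. It had 132, 165 and 187 FPKM at ZT16, against 104, 83.1 and 104 FPKM at ZT12, and rose by 0.72 (SE 0.12, adjusted p = 0.00239); without ZT16 replicate 3 its adjusted p was 0.0539.

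Myogenic regulators were higher at ZT16 where they passed. Of 15 tested members of this list 2 rose, none fell, 13 differences were positive and the median was 0.20. Myod1, the transcription factor that commits cells to muscle and whose cycling enhancer is bound by BMAL1 in mice, had 39.4, 38.4 and 46.1 FPKM at ZT16, against 18, 20.9 and 21.5 FPKM at ZT12. It rose by 1.00 (SE 0.14, adjusted p = 0.000195 by limma), and its highest mean of the day was at ZT16. Sdc4, a satellite cell proteoglycan, and Myf6, the regulator of mature fibres, differed by 0.45 (SE 0.14, adjusted p = 0.287) and 0.38 (SE 0.14, adjusted p = 0.442). Asb2, a ubiquitin ligase subunit of muscle that is not a member of this list, had the highest mean FPKM of the genes called. It had 397, 465 and 453 FPKM at ZT16, against 357, 273 and 261 FPKM at ZT12, and rose by 0.57 (SE 0.13, adjusted p = 0.0434). Asb2 was chosen after its values were seen, and without ZT16 replicate 2 its adjusted p was 0.256.

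Of 25 cytosolic heat shock chaperones, 2 rose and none fell, both of the DNAJ family of HSP70 co-chaperones. Dnajb4 had 36.6, 38.5 and 38.1 FPKM at ZT16, against 21.2, 21.8 and 27 FPKM at ZT12, and rose by 0.68 (SE 0.15, adjusted p = 0.0385 by limma). Dnaja1 had 8.13, 9.09 and 12.0 FPKM at ZT16, against 6.35, 5.30 and 7.17 FPKM at ZT12, and rose by 0.55 (SE 0.13, adjusted p = 0.0457). Without ZT12 replicate 2 the adjusted p of Dnajb4 was 0.202, and without ZT16 replicate 3 that of Dnaja1 was 0.422. The inducible HSP70 gene Hspa1a had 4.35, 6.31 and 10.9 FPKM at ZT16, against 2.90, 2.54 and 1.77 FPKM at ZT12, and Hsp90aa1 had 17.5, 16.6 and 21.5 FPKM, against 12.8, 11.3 and 12.7 FPKM. Neither overlapped, and their differences of 1.20 (SE 0.31) and 0.55 (SE 0.15) had adjusted p of 0.0995 and 0.16. The median over the 25 was 0.07, with 20 positive.

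Few metabolic genes passed. In fatty acid and triglyceride synthesis 1 of 21 rose, Pnpla3, an insulin-responsive lipid droplet protein, with 4.96, 4.62 and 5.87 FPKM at ZT16, against 1.31, 0.657 and 2.22 FPKM at ZT12. Its difference was 1.41 (SE 0.32, adjusted p = 0.0457 by limma), the largest rise among the genes called, and it was called in only 1 of the 6 fits that left out a library, with an adjusted p of 0.28 without ZT12 replicate 2. Insulin signalling and glucose uptake had no call among 21 genes, and 6 had an unadjusted p under 0.05. Among them Ppp1r3c, a glycogen-targeting phosphatase subunit, had 262, 230 and 196 FPKM at ZT16 and 152, 116 and 146 FPKM at ZT12 (0.72, SE 0.21, adjusted p = 0.19). Tbc1d1, a brake on GLUT4 traffic, and Slc2a1, the glucose transporter GLUT1, differed by 0.78 (SE 0.25, adjusted p = 0.275) and 0.44 (SE 0.16, adjusted p = 0.445).

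Among 20 genes of glutamine, amino acid transport and polyamines none was called by limma, and 6 had an unadjusted p under 0.05. Slc43a1, a transporter of large neutral amino acids, had 4.40, 4.31 and 5.38 FPKM at ZT16, against 7.81, 8.15 and 9.24 FPKM at ZT12 (−0.72, SE 0.18, adjusted p = 0.0763). Slc38a2, a sodium-coupled glutamine transporter, had 67.0, 61.4 and 57.8 FPKM at ZT16, against 43.4, 27.7 and 46.9 FPKM at ZT12 (0.68, SE 0.19, adjusted p = 0.139). Neither gene's groups overlapped, in opposite directions. Glul, glutamine synthetase, and Srm, spermidine synthase, differed by 0.47 (SE 0.15, adjusted p = 0.304) and −0.53 (SE 0.18, adjusted p = 0.322). Of 17 PPAR and fasting targets none was called and 2 had an unadjusted p under 0.05. One was Ppara itself, with 4.34, 4.76 and 4.61 FPKM at ZT16, against 2.71, 1.94 and 2.89 FPKM at ZT12 (0.67, SE 0.18, adjusted p = 0.0995). Acot2, a mitochondrial thioesterase, and Cpt1a, the carnitine palmitoyltransferase of liver type, differed by −0.45 (SE 0.17, adjusted p = 0.465) and −0.31 (SE 0.17, adjusted p = 0.88).

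Immediate early genes had no call among 22, with 6 at an unadjusted p under 0.05 and a median of 0.17. Of the 22, 15 differences were positive and 7 negative. Values separated without overlap upward for 4 members and downward for 3, beside 6.26% and 3.88% of all genes tested. Ier3, Klf4 and Jun had higher values in each ZT16 library than in any ZT12 library. Their differences were 0.61 (SE 0.17, adjusted p = 0.14), 0.91 (SE 0.28, adjusted p = 0.246) and 0.48 (SE 0.16, adjusted p = 0.319). The Krüppel-like factor Klf10 had 4.98, 8.55 and 9.42 FPKM at ZT16 and 4.67, 2.47 and 3.40 FPKM at ZT12 (0.93, SE 0.26, adjusted p = 0.174). None of these passed the limma test.

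Genes of the vessel wall were among those called outside the lists. Gja5, which encodes connexin 40 of arterial endothelium, had 2.11, 2.74 and 2.92 FPKM at ZT16, against 0.927, 1.05 and 1.54 FPKM at ZT12, and rose by 0.73 (SE 0.14, adjusted p = 0.0103 by limma). Eng, the endothelial co-receptor endoglin, had 27.2, 22.8 and 26.5 FPKM at ZT16, against 17, 17.3 and 18.3 FPKM at ZT12, and rose by 0.51 (SE 0.12, adjusted p = 0.0473). Eng was chosen after its values were seen, and it passed in none of the fits that left out 1 library, with adjusted p up to 0.235 without ZT16 replicate 1. The adjusted p of Gja5 reached 0.0966 without ZT16 replicate 3. Of the 8 endothelial markers none passed and 3 had an unadjusted p under 0.05: Kdr, Tek and Cdh5, with differences of 0.51 (SE 0.17), 0.35 (SE 0.13) and 0.27 (SE 0.11). Their summed level was 122 to 128 FPKM at ZT16, above the 108 to 117 FPKM at ZT12, and the part of this in Gja5 and Eng was not tested.

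Other genes called belong to signalling, transport and protein turnover. Ypel2, of the yippee-like family, had the smallest p of all: 5.52, 5.76 and 5.21 FPKM at ZT16, against 2.43, 1.67 and 2.36 FPKM at ZT12, a rise of 1.05 (SE 0.13, adjusted p = 0.000102 by limma). Slc16a9, of the monocarboxylate transporter family, had 8.14, 8.02 and 6.97 FPKM at ZT16, against 4.01, 3.18 and 3.54 FPKM at ZT12, a rise of 0.93 (SE 0.16, adjusted p = 0.00239). Both passed whichever library was left out. Pde4b, a cAMP phosphodiesterase, rose by 0.96 (SE 0.20, adjusted p = 0.0295), Ppp1r10, a nuclear subunit of protein phosphatase 1, by 0.85 (SE 0.16, adjusted p = 0.0115), and Aqp7, a glycerol channel, by 0.74 (SE 0.17, adjusted p = 0.0395). Dyrk2, a protein kinase, Wsb1, a ubiquitin ligase subunit, and Dll1, a Notch ligand, rose by 0.72 (SE 0.16), 0.72 (SE 0.16) and 0.71 (SE 0.16). Lrrc52, an auxiliary subunit of potassium channels, rose by 1.14 (SE 0.26, adjusted p = 0.0461), at low levels of 2.47 to 5.40 FPKM at ZT16 and 0.951 to 1.67 FPKM at ZT12. These 7 lost the call without at least 3 of the 6 libraries, with adjusted p up to 0.257 for Pde4b, 0.0919 for Ppp1r10, 0.215 for Aqp7 and 0.37 for Dyrk2 (each without ZT12 replicate 2), 0.232 for Wsb1 (the same), 0.295 for Dll1 (without ZT16 replicate 3) and 0.356 for Lrrc52 (without ZT16 replicate 2).

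Further rises were named after their values were seen. Fam73b, a mitochondrial fusion protein, had 7.71, 9.86 and 7.95 FPKM at ZT16, against 4.49, 5.37 and 4.64 FPKM at ZT12 (0.70, SE 0.16, adjusted p = 0.0421 by limma). Slc20a1, a phosphate transporter, had 11.4, 12.5 and 13.6 FPKM at ZT16, against 7.22, 7.01 and 7.75 FPKM at ZT12 (0.69, SE 0.15, adjusted p = 0.0375). Zfp36l1, which promotes decay of mRNAs with AU-rich elements, had 21.3, 18.9 and 18.9 FPKM at ZT16, against 12.0, 9.84 and 14.2 FPKM at ZT12 (0.68, SE 0.16, adjusted p = 0.0457). All 3 separated by a clear gap between the times. Cbfa2t3, a transcriptional corepressor, had 5.13, 5.14 and 6.53 FPKM at ZT16, against 2.85, 3.03 and 3.97 FPKM at ZT12 (0.62, SE 0.13, adjusted p = 0.0209). Hexim1, an inhibitor of the elongation factor P-TEFb, had 11.1, 10.2 and 12.3 FPKM at ZT16, against 8.76, 8.66 and 6.54 FPKM at ZT12 (0.45, SE 0.10, adjusted p = 0.0457). Casc3, of the exon junction complex, had 8.81, 9.60 and 8.64 FPKM at ZT16, against 7.39, 5.72 and 6.71 FPKM at ZT12 (0.40, SE 0.09, adjusted p = 0.0385). Casc3 had the smallest rise of the 34. Leaving out 1 library took the adjusted p to 0.285 for Fam73b and 0.187 for Slc20a1 (ZT16 replicates 2 and 3), 0.28 for Zfp36l1 and 0.271 for Casc3 (both ZT12 replicate 2), and 0.18 for Cbfa2t3 and 0.302 for Hexim1 (both ZT16 replicate 3).

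Some of the genes that fell lay outside the lists. Lnx1, a ubiquitin ligase of the Notch regulator NUMB, had 0.83, 1.38 and 1.08 FPKM at ZT16, against 2.33, 3.31 and 1.78 FPKM at ZT12, and fell by 0.71 (SE 0.17, adjusted p = 0.0457 by limma). Sema7a, a membrane-anchored semaphorin, fell by 0.53 (SE 0.13, adjusted p = 0.0473), and Snrk, a kinase related to AMPK, by 0.43 (SE 0.10, adjusted p = 0.0385). BC025920, for which no function is given here, had 1.41, 1.29 and 1.37 FPKM at ZT16, against 2.15, 2.69 and 3.18 FPKM at ZT12, and fell by 0.63 (SE 0.13, adjusted p = 0.0295). Of the 48 genes called, 10 had means under 3 FPKM at both times. Without 1 library the adjusted p of Lnx1 reached 0.327 and that of Snrk 0.193 (ZT12 replicates 2 and 3), and those of Sema7a and BC025920 0.256 and 0.152 (ZT16 replicate 2 and ZT12 replicate 3).

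No gene of the large protein assemblies passed. None of 36 genes of respiratory complex I, of 40 of complexes II to V, of 40 cytosolic ribosomal proteins or of 30 proteasome subunits was called by limma, and none had an unadjusted p under 0.05. Medians were −0.06, −0.04, −0.11 and −0.06. The signs of these medians rest on ZT12 replicate 2: without it they were 0.18, 0.17, 0.08 and 0.02. Collagens and matrix genes had 18 of 19 differences below 0, a median of −0.33 and no call, with 1 gene at an unadjusted p under 0.05; summed fibroblast and tendon markers were 203, 231 and 399 FPKM at ZT16 and 382, 162 and 563 FPKM at ZT12. Among 16 fast fibre genes none was called, and the difference of Myh4 was exactly 0. In all, 12 of the 46 lists other than markers held a call and 34 held none.

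**Figure D3:**
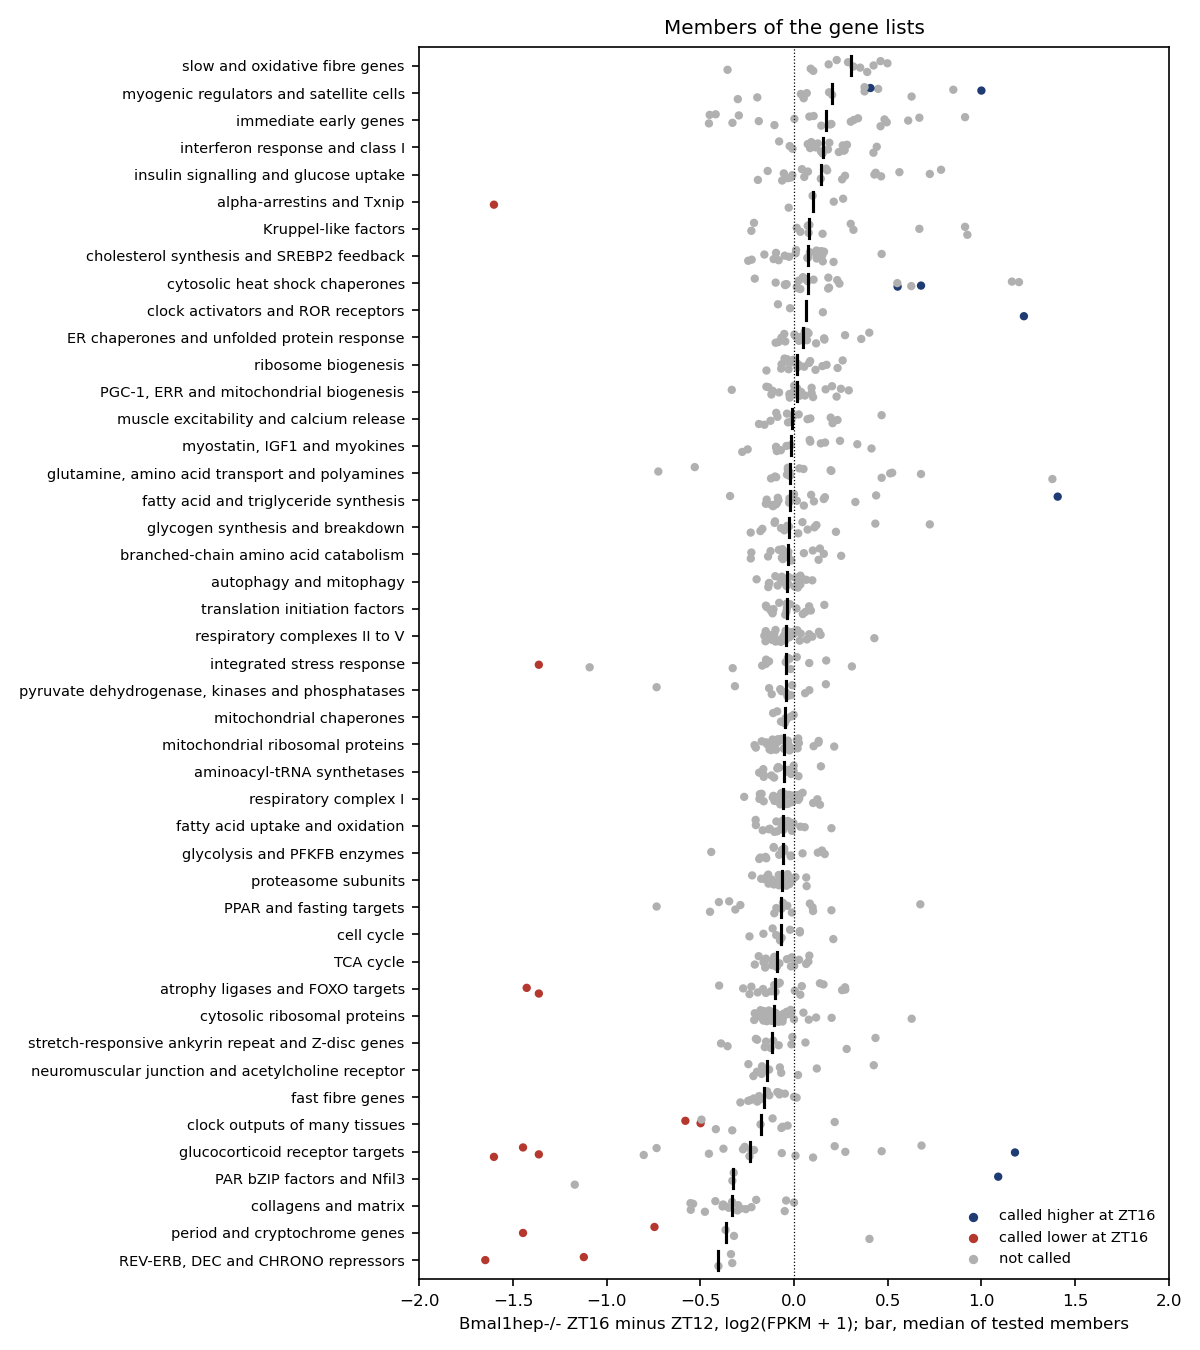
Differences between ZT16 and ZT12 in Bmal1hep-/- muscle (log2(FPKM + 1)) for tested members of each gene list with at least 4, ordered by the median (bar); blue, called higher at ZT16; red, called lower; grey, not called. Acta1, at −5.23 through its single 0, lies outside the axis in the fast fibre row.

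Over the day in Bmal1hep-/- muscle, most of the genes called turned at one of these times. Of the 34 higher genes, 21 had their lowest mean of the 6 times at ZT12, 8 at ZT8 and 5 at ZT4; 13 had their highest at ZT16, 10 at ZT20, 10 at ZT0 and 1 at ZT4. Of the 14 lower genes, 11 had their highest mean at ZT12, 2 at ZT8 and 1 at ZT4; 9 had their lowest at ZT0, 3 at ZT16 and 2 at ZT20. Since the genes were chosen for this step, these counts and the next are descriptions. The step covered a median of 75.3% of a called gene's distance between its lowest and highest log2 means, with 41.2% for Nr1d1 at the low end and all of it for 7 genes, among them Gadd45g and Gja5. Among the clock genes called, the share was 44.8% for Arntl, 46.5% for Per3, 48.1% for Nfil3, 52.2% for Per1 and 58.4% for Ciart. Fkbp5 covered 90.2% and Myod1 68.7%. For Per2, which did not pass, it was 17.8% of a range of 2.06.

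**Figure D4:**
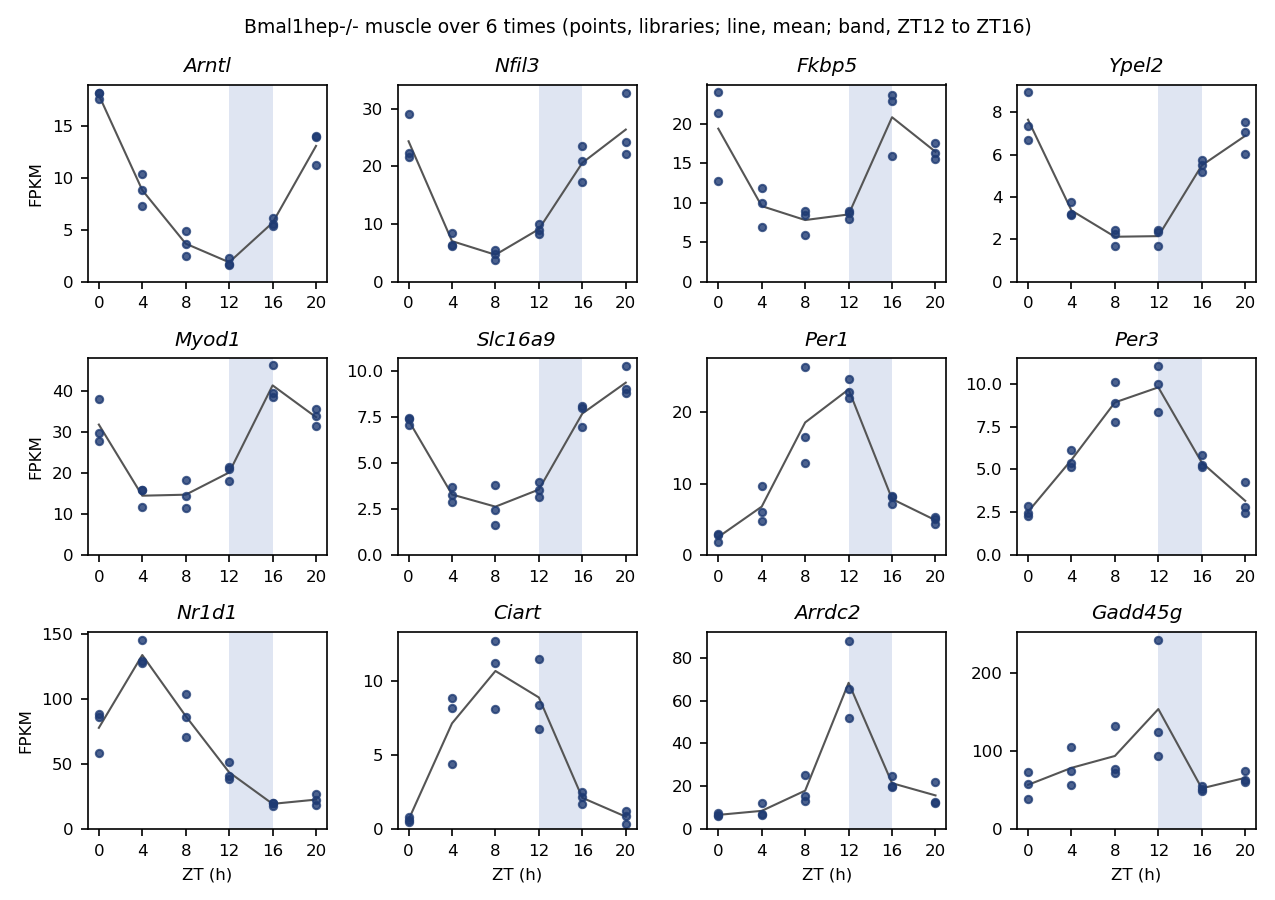
FPKM of 12 genes called, over the 6 times in Bmal1hep-/- muscle; points are single libraries, lines join means of 3, and the band marks the step from ZT12 to ZT16. Nr1d1 reaches its lowest mean at ZT16, Per1, Per3 and Arrdc2 leave their highest at ZT12, and Arntl leaves its lowest.

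The WT step from ZT12 to ZT16 had 21 genes higher (0.194%) and 10 lower (0.0923%), or 31 called (0.286%). Of the 48 genes called in Bmal1hep-/- muscle, 47 had the same sign in WT, 40 had an unadjusted p under 0.05 there and 16 were called there too. In 37 of the 48 the WT values separated in the same direction, as they did upward for 8.9% and downward for 8.71% of all genes tested. These 16 were 33.3% of the Bmal1hep-/- calls and 51.6% of the WT calls. All 31 genes called in WT had the same sign in Bmal1hep-/- muscle, 28 of them with an unadjusted p under 0.05. The 2 genotypes share no library, but both steps were tested in a single fit with a common estimate of spread per gene. Some WT libraries stood apart too. Summed Schwann cell and nerve markers were 648 FPKM in WT ZT12 replicate 1, against 62.1 and 90.1 in replicates 2 and 3. WT ZT16 replicate 3 had an FPKM sum of 688554 and a rho with transcript length of −0.214.

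No gene's step was called different between the genotypes by limma (0%). The smallest adjusted p of the difference was 0.967, and 364 genes were under 0.05 before adjustment. This difference had a wide interval, with a 95% half-width of 0.42 for a typical gene, so smaller differences could not be seen even before adjustment. Larger ones also went uncalled after adjustment, such as −0.77 for BC025920 and −1.15 for Fam219aos. For Arntl the difference was 0.04, with a 95% interval of −0.44 to 0.51. For Nr1d1 it was −0.01, with an interval of −0.49 to 0.48, and for Ciart 0.09, with an interval of −0.53 to 0.72. Per1 fell by 1.45 in Bmal1hep-/- muscle and by 0.99 in WT muscle, a difference of −0.45 with an interval of −1.04 to 0.13. Gadd45g, Arrdc2 and Ddit4 fell by 1.43, 1.60 and 1.36 in Bmal1hep-/- muscle; their WT differences of −0.75, −0.94 and −0.72 did not pass. The differences between these steps were −0.67 (−1.46 to 0.12), −0.66 (−1.54 to 0.21) and −0.65 (−1.49 to 0.20), so a larger fall in Bmal1hep-/- muscle was not established.

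The 10 genes of smallest p for the difference between steps were BC025920, Stx3, Slc28a2, Sec22a, Fnip2, AK010878, Ifit1, Wbp1, Fnbp4 and Fam219aos, the last named as an antisense gene, all with an adjusted p of 0.967. BC025920 had 1.41, 1.29 and 1.37 FPKM at ZT16 and 2.15, 2.69 and 3.18 FPKM at ZT12 in Bmal1hep-/- muscle. In WT muscle it had 1.63, 2.01 and 1.89 FPKM at ZT16 and 1.66, 1.75 and 1.36 FPKM at ZT12. The Bmal1hep-/- values separated and the WT values overlapped, and the difference of −0.77 (−1.16 to −0.38) had an unadjusted p of 0.00038. Among the 48 genes called, 8 had an unadjusted p under 0.05 for this difference, and are named after their values were seen: Slc16a9, Gja5, Rassf9, Slc20a1, Ppp1r16b, Hexim1, Sema7a and BC025920. Summed hepatocyte markers were 0.395 to 2.97 FPKM in the 6 Bmal1hep-/- libraries of this step and 12.1 to 20.6 FPKM in the 6 WT libraries. In the other 24 libraries of the series they ran from 0.0029 to 260 FPKM and did not follow genotype. They were 0.747 in WT ZT0 replicate 3 and 16.7 in Bmal1hep-/- ZT0 replicate 2. The part of these markers in the comparison of genotypes was not tested.

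**Figure D5:**
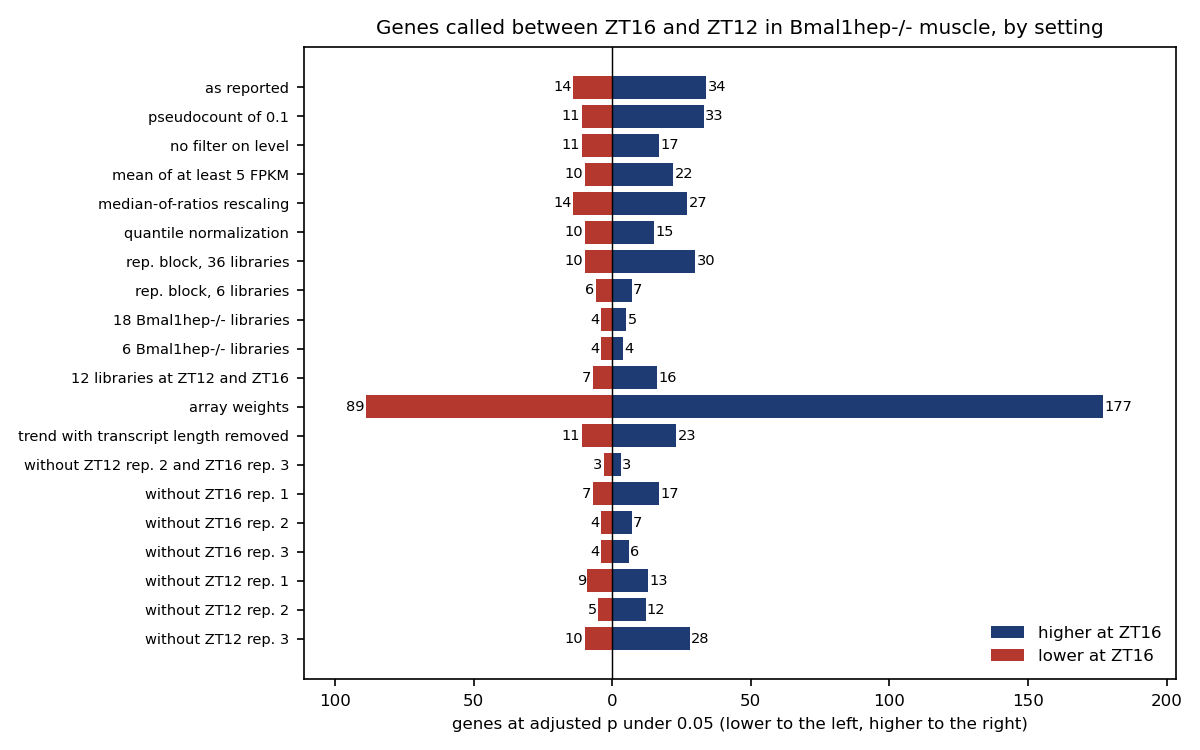
Number of genes with adjusted p under 0.05 between ZT16 and ZT12 in Bmal1hep-/- muscle under each setting, higher to the right and lower to the left. As reported there are 34 and 14; leaving out single Bmal1hep-/- libraries gives 6 to 28 higher and 4 to 10 lower.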

How the data were processed

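Whole gastrocnemius muscle RNA was measured in 36 libraries, 3 for each of 2 genotypes at 6 times, and the 6 Bmal1hep-/- libraries of ZT16 and ZT12 are described here. The authors deposited FPKM per gene symbol as a single table (24319 symbols), 5577 of them at 0 in every library. FastQC 0.11.8, STAR and the builds mm10 and GRCm39 are named per the submitters' processing notes; the tool and annotation behind FPKM, read totals and any rescaling of libraries are not given, so depth is unknown and no counting intervals are given. Values were taken as log2(FPKM + 1), which understates changes of low genes. Genes averaging 1 FPKM or more in the 36 columns (10837) entered the test, with limma 3.58.1 in R 4.3.3 (12 group means, empirical Bayes with trend and robust options, 24 residual degrees of freedom, two-sided), since 3 libraries a group alone give little hold on the spread. Adjustment was Benjamini-Hochberg across the 10837 genes, and adjusted p under 0.05 was called. Gene lists have no test of their own: counts and medians stand beside those of all genes. Members and lists were chosen with earlier results of these data known. Text names the clock genes tested, the 15 largest rises and falls among called genes whose groups did not overlap (14 fell), up to 4 members of smallest p per list and the 10 genes of smallest p for the difference between genotypes; predicted genes were counted and not named, and some genes under this rule are not reported here. Transcript lengths came from GENCODE M21, for 10466 of the tested genes (96.58%). Promoter windows are RefSeq's. The test was tried on simulated data with known changes. Alternatives were other pseudocounts, filters, scalings, subsets of libraries, a replicate block, weights per library, removal of a trend with transcript length, and leaving out each library in turn. Python 3.11.15, pandas 2.3.3 and matplotlib 3.10.9 were used for tables and figures.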

Additional observations from a re-analysis of the deposited data

How the results depend on the processing

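With 34 genes higher and 14 lower as reported, other settings gave 17 higher with no filter on level, 22 with a mean of at least 5 FPKM, 15 higher and 10 lower with quantile normalization, 5 higher and 4 lower in a fit of the 18 Bmal1hep-/- libraries, 4 and 4 in a fit of the 6 libraries, 16 and 7 in a fit of the 12 libraries at these times, and 177 and 89 with array weights. The array weights were estimated gene by gene, because the default estimate did not converge. Without ZT12 replicate 2 and ZT16 replicate 3 together there were 3 and 3. Leaving out 1 library gave 6 to 28 higher and 4 to 10 lower. A pseudocount of 0.1, median-of-ratios rescaling and removal of the length trend kept both counts within 1.5 times. The genotype difference gave 0 calls in every setting run. Of the 48 genes called, 5 kept the call in every alternative in which they were tested (Arntl, Myod1, Nr1d1, Per1 and Ciart); Ciart was below the filter at a mean of at least 5 FPKM. Replicate numbers did not pair the samples (correlations of deviations 0.016, 0.107 and −0.030); with the replicate block there were 30 higher and 10 lower over 36 libraries, and 7 and 6 over 6 libraries. Differences near 0 changed sign for 2 clock genes that were called in none of these settings: over the fits that left out 1 library, Clock ran from −0.0027 to 0.25 and Rora from −0.25 to 0.12, and Clock was −0.018 without both libraries. The unknown read depth limits what can be said of genes near 1 FPKM.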

Other observations

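Slow and oxidative fibre genes had 11 of 12 differences above 0 in Bmal1hep-/- muscle, with a median of 0.30 and no call by limma; none had an unadjusted p under 0.05, and without ZT12 replicate 1 the median was 0.04. In WT muscle their median was 0.77, again with no call. Interferon response and class I genes had a median of 0.15 in Bmal1hep-/- muscle and −0.14 in WT muscle, with 16 of 19 above 0 in Bmal1hep-/- muscle, none called and 2 with an unadjusted p under 0.05 for the difference between genotypes. Schwann cell and nerve markers had a median of 0.38, which was −0.15 without ZT16 replicate 3, the library with the highest sum of these markers among the 6.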
